A study of Arabidopsis thaliana with 62 samples.

Results

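psaA and psaB are neighbouring genes of the plastid genome of Arabidopsis thaliana. Their coverage was followed here in a membrane and a stroma fraction after crosslinking. Both genes were taken by name from the plastid gene annotation and are 2 of the 113 genes tested. psaA (locus tag ArthCp022) lies at 39605 to 41857 and is 2253 bp long, and psaB (ArthCp021) lies at 37375 to 39579 and is 2205 bp long, with 25 bp between them. Positions are those of the TAIR10 plastid genome. rps14 (ArthCp020) lies on the far side of psaB, at 36938 to 37240, and ycf3 (ArthCp023) at 42584 to 44591 on the other side. The 726 bp between psaA and ycf3 hold no annotated gene, and the 643 of them nearest to psaA are called the upstream region here. A profile of 27 windows of 200 bp ran from psaB into this region, out of 649 windows tested.

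The proteins PsaA and PsaB form the heterodimer at the core of photosystem I, which binds the reaction-centre chlorophyll P700 and most of the electron carriers. In plants psaA, psaB and rps14 are read as 1 operon, by the plastid-encoded RNA polymerase and in the direction from psaA to rps14, so the upstream region holds the operon's promoter. Sigma factors are nuclear-encoded subunits that bring this polymerase to its promoters. Photosystem I itself sits in the thylakoid membrane, and its core proteins are inserted there while they are made.

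The assay, called SOLINA in the labels, sequences the plastid DNA that is recovered with the membranes and with the stroma after crosslinking with 4% formaldehyde for 4 h. The libraries were deposited as a pair of coverage tables, called set A and set B here. Set A held 30 libraries, 3 from each fraction of each condition. Its conditions were 4-day-old seedlings of 2 sigma factor mutants, sig2-2 and sig6-1, leaves of wild-type plants 14 days old after 24 h of darkness (Night) or 2 h into the light period (Day), and wild-type seedlings 4 days old (Col0). Set B held 31 libraries of seedlings 4 days old of sig2-2, of chl27 and chlm, which carry the names of chlorophyll synthesis genes, and of Col0, 4 from each fraction except 3 for chlm stroma. The seedlings were grown in continuous light and the 14-day plants on soil in long days. Seedlings were pooled, 50 to a sample, in set B, whose protocol gives an age of 4 to 5 days where the titles give 4. The protocol of set A describes 5 g of rosette leaves, for the seedling samples as well. Day and Col0 in set A therefore differ in age, tissue and growth conditions at once, and these cannot be told apart. Set A and set B differ in protocol and were fitted apart, so their values are not like for like. Nothing in the labels says that replicates came from separate cultures, so p-values measure the spread between these samples.

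Mean depth per library, the average coverage of a base, was 95.4 to 1596 in set A and 298.9 to 4598 in set B, and that of psaA or psaB was never below 76.9. Stroma libraries were the deeper ones in set B, with a median depth of 730.7 in membrane and 3348 in stroma. Each library was divided by its own mean depth, so a gene at 1 is covered like the average base of the plastid genome. A higher value in 1 fraction cannot be told apart from lower coverage of the rest of the genome in that fraction. This bears on set A, where the median of all genes moved by 0.24 (Col0), 0.26 (sig2-2), 0.20 (Day) and 0.11 (sig6-1) on the log2 scale of the membrane to stroma ratio when libraries were divided by their median gene instead. That scaling turned 26 higher and 56 lower gene calls into 30 and 18 in Col0, 18 and 63 into 34 and 21 in sig2-2, 15 and 40 into 24 and 14 in Day, and 9 and 3 into 11 and 1 in sig6-1. Scaling to the single-copy part of the genome gave 29 higher and 34 lower for Col0, 32 higher and 24 lower for sig2-2, 19 higher and 23 lower for Day, and 0 higher and 1 lower for sig6-1. In set B it turned 12 higher and 6 lower calls into 12 and 3 in Col0, and single-copy scaling gave 7 and 1 there. For chlm, 6 higher and 3 lower calls became 2 and 0 with single-copy scaling.

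Over all libraries psaA lay between 0.865 and 1.31 and psaB between 0.788 and 1.36, around the genome average. In the 4-day Col0 seedlings of set A, psaA stood at 1.05, 1.05 and 1.01 in the 3 membrane libraries, against 1.23, 1.16 and 1.20 in the 3 stroma libraries. psaB stood at 0.881, 0.925 and 0.878 in membrane, against 1.13, 1.06 and 1.11 in stroma. For neither gene did the fractions overlap, with stroma the higher. The fractions of psaC, psaI, psaJ, ycf3, ycf4 and rps14, listed further on, did not overlap in Col0 of set A either. The share of all genes without overlap is not given here. The log2 membrane to stroma ratio was -0.21 for psaA (SE 0.10, limma adjusted p 0.0689) and -0.30 for psaB (SE 0.09, limma adjusted p 0.00567), so that psaB passed the threshold of 0.05 and psaA did not. The median of all genes was -0.27 and 72.6% of genes passed in Col0, so psaB lay near the typical gene. With libraries scaled to the median gene psaB was at -0.06 (limma adjusted p 0.434) and with single-copy scaling at -0.11 (limma adjusted p 0.193), and psaA was at 0.03 and -0.02.

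In Day leaves psaB was higher in membrane. psaB stood at 1.07, 1.36 and 1.30 in the membrane libraries, against 1.08, 1.10 and 0.996 in the stroma libraries, and psaA at 1.04, 1.31 and 1.25 against 1.03, 1.12 and 0.983. Replicates 2 and 3 of the membrane were above every stroma library for both genes, and membrane replicate 1 was not. psaB was higher in membrane, by 0.23 on the log2 scale (SE 0.09, limma adjusted p 0.0431), while psaA was at 0.19 (SE 0.10, limma adjusted p 0.124). The median of all genes was -0.21 and 48.7% of genes passed in Day, of which 15 were higher and 40 lower in membrane. psaB was 18th and psaA 21st of the 113 genes when ordered from the highest ratio. Scaling to the median gene raised psaB to 0.43 (limma adjusted p 5.66e-06) and psaA to 0.39 (limma adjusted p 0.000156), and both passed with single-copy scaling as well. At the library mean psaB did not pass when a single library was left out, be it membrane 2 (limma adjusted p 0.201), membrane 3 (0.132), stroma 1 (0.0683) or stroma 3 (0.166). Without membrane 1, psaA passed too (0.29, limma adjusted p 0.0352).

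After 24 h of darkness neither gene passed. psaB stood at 0.912, 1.06 and 1.10 in Night membrane, against 1.17, 1.12 and 1.14 in Night stroma, and psaA at 0.934, 1.09 and 1.16 against 1.20, 1.13 and 1.15. Membrane replicate 1, the shallowest library of set A at a mean depth of 95.4, had the lowest value for both, and the psaB libraries of the fractions did not overlap. Of the 6 genes listed further on, psaC alone was also without overlap. The log2 ratios were -0.16 for psaB (limma adjusted p 0.587) and -0.13 for psaA (limma adjusted p 0.709), and 0% of genes passed in Night, with 7 at an unadjusted p under 0.05.

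Of the sigma factor mutants of set A, sig2-2 had psaB lower in membrane and sig6-1 had neither gene called. In sig2-2, psaA stood at 1.14, 1.15 and 0.865 in membrane, against 1.04, 1.23 and 1.14 in stroma, and psaB at 0.918, 0.990 and 0.788 against 1.00, 1.11 and 1.01. Membrane replicate 3, with a mean depth of 97.7, was the lowest for both genes, and the psaB libraries of the fractions did not overlap. Of the 6 genes listed further on, psaI, psaJ and ycf3 were also without overlap. psaB was lower in membrane by -0.22 (SE 0.09, limma adjusted p 0.0364) and psaA was at -0.12 (limma adjusted p 0.277), where 71.7% of genes passed. psaB did not pass when membrane 1 (limma adjusted p 0.0518), membrane 3 (0.223) or stroma 2 (0.143) was left out, and the sign turned to 0.04 with median scaling and 0.09 with single-copy scaling. psaA turned likewise, to 0.13 and 0.18. In sig6-1, psaA stood at 1.18, 1.14 and 1.15 in membrane against 1.17, 1.07 and 1.10 in stroma, and psaB at 0.973, 0.987 and 0.933 against 1.03, 0.975 and 0.965. The ratios of 0.06 for psaA (limma adjusted p 0.724) and -0.04 for psaB (limma adjusted p 0.797) did not pass, against 10.6% of all genes, and that of psaB was above 0 under both other scalings (0.08 and 0.03).

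**Figure D1:**
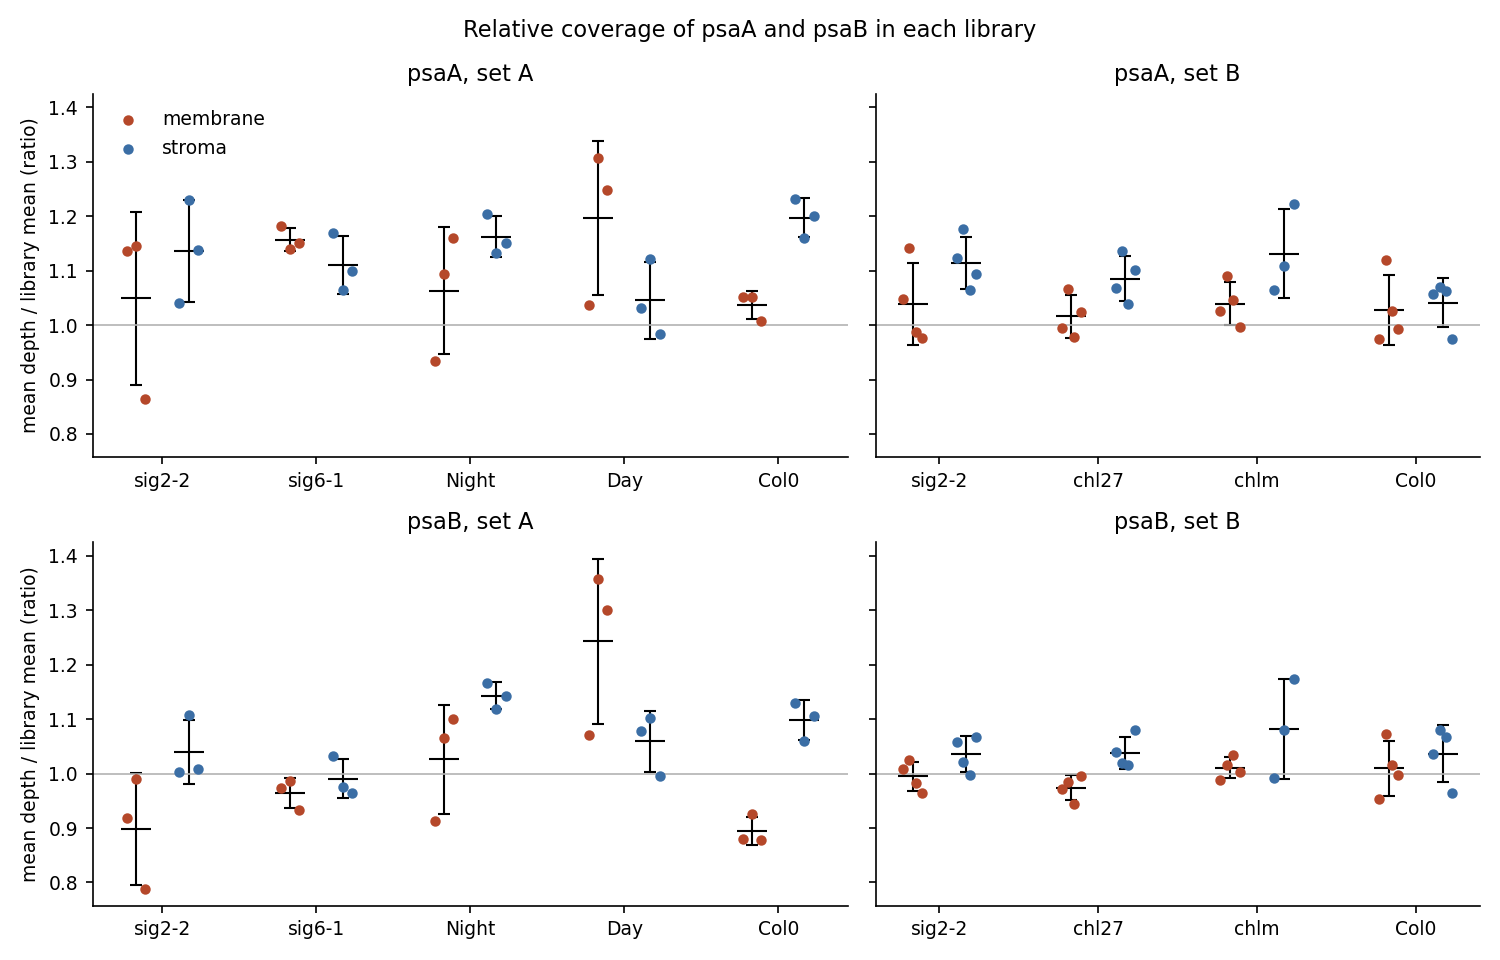
Relative coverage of psaA (top) and psaB (bottom) in each library of set A (left) and set B (right). Points are libraries, membrane left of stroma, with the group mean (line) and SD (bar), and the grey line marks the library mean. In set A the Col0 membrane libraries of psaB (0.878 to 0.925) lie below all its stroma libraries, and Day membrane replicates 2 and 3 (1.36 and 1.30) lie above all Day stroma libraries.

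In set B neither gene was called. psaA averaged 1.04 ± 0.08 in sig2-2 membrane and 1.11 ± 0.05 in sig2-2 stroma, 1.02 ± 0.04 in chl27 membrane and 1.09 ± 0.04 in chl27 stroma (SD, n = 4 each). In chlm it averaged 1.04 ± 0.04 in membrane (SD, n = 4) and 1.13 ± 0.08 in stroma (SD, n = 3), and in Col0 1.03 ± 0.06 in membrane and 1.04 ± 0.04 in stroma (SD, n = 4 each). The membrane mean was the lower one in each condition, and the psaA libraries of the fractions overlapped in all 4, as those of psaB did except in chl27. In chl27 the fractions overlapped for all 6 genes listed further on. The psaA ratios were -0.10 in sig2-2, -0.10 in chl27, -0.12 in chlm and -0.02 in Col0, with limma adjusted p values of 0.355, 0.473, 0.270 and 0.791. Those of psaB were -0.06, -0.09, -0.10 and -0.04, with limma adjusted p values of 0.607, 0.376, 0.340 and 0.564. Of all genes 0% passed in sig2-2 (14 at an unadjusted p under 0.05), 0% in chl27 (16 unadjusted), 7.96% in chlm and 15.9% in Col0. Without chlm stroma replicate 2 psaB passed in chlm (-0.16, limma adjusted p 0.0469). In Col0 both ratios were above 0 with median scaling (0.03 and 0.02) and with single-copy scaling (0.05 and 0.03).

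**Figure D2:**
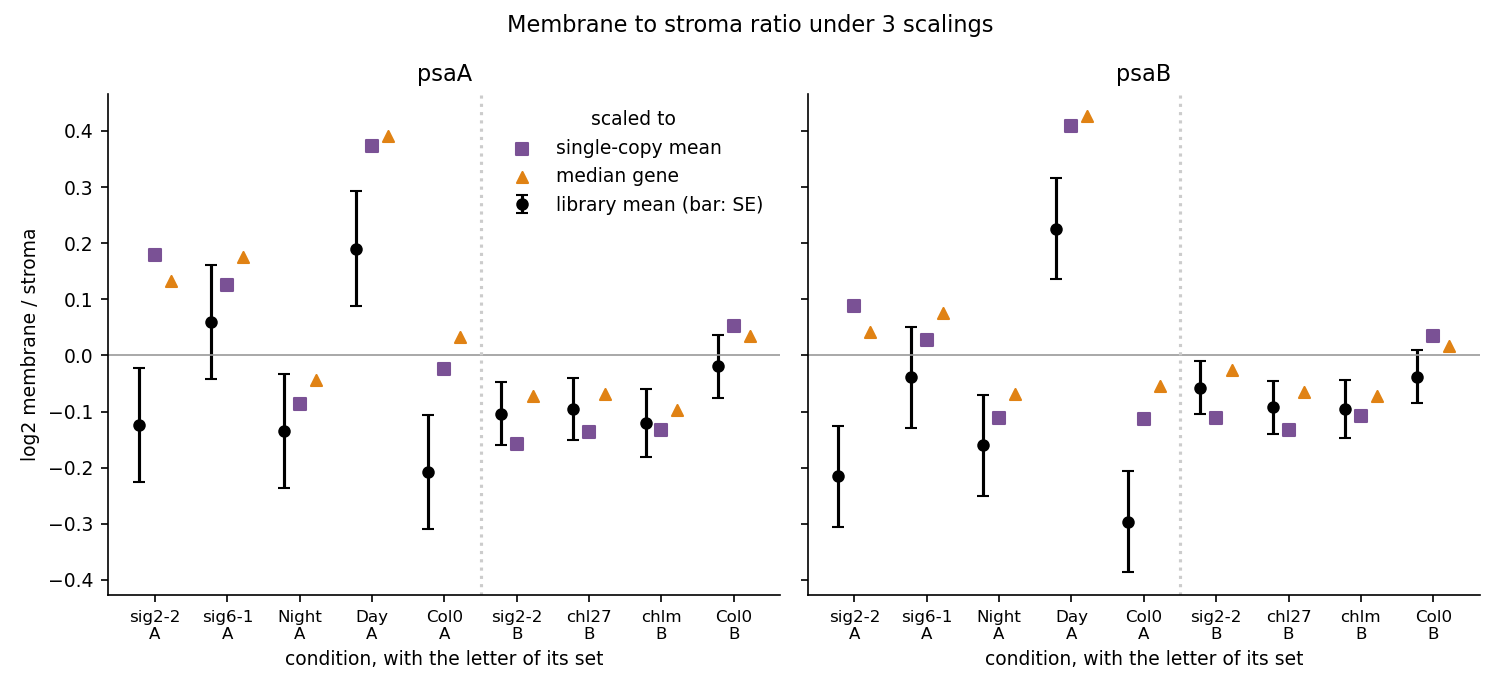
Log2 membrane to stroma ratio of psaA (left) and psaB (right) in each condition, with libraries scaled to their mean (circles, with the SE of the limma fit), to the mean of the single-copy part (squares) or to the median gene (triangles). In set A the other scalings lift every ratio, that of Day psaB to 0.43 and that of Col0 psaB to -0.06, while in set B all lie between -0.16 and 0.05.

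Ordered by level, psaA in set A ran from 1.20 in Col0 stroma and 1.20 in Day membrane down to 1.05 in Day stroma and 1.04 in Col0 membrane. psaB ran from 1.24 in Day membrane and 1.14 in Night stroma down to 0.898 in sig2-2 membrane and 0.895 in Col0 membrane. Groups next to each other in this order overlapped in their libraries throughout, for both genes and both tables. In set B the 4 stroma groups held the 4 highest places for both genes, from 1.13 in chlm stroma down to 1.04 in Col0 stroma for psaA.

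The ratio itself differed between Day leaves and Col0 seedlings for psaB. The difference of the log2 ratios was 0.52 for psaB (SE 0.13, limma adjusted p 0.0153) and 0.40 for psaA (SE 0.14, limma adjusted p 0.0841), where 9.73% of genes passed. psaB was 5th and psaA 9th of 113 genes in this difference, and the median gene was at 0.04. psaA passed with median scaling (0.36, limma adjusted p 0.0209) and without Day membrane replicate 1 (0.50, limma adjusted p 0.0236). Within the membrane fraction psaB was higher in Day than in Col0 by 0.47 (limma adjusted p 0.000143) and psaA stood at 0.20 (limma adjusted p 0.0784), against a median of 0.19 over all genes and 66.4% called. Without Day membrane replicate 1 psaA passed there too (0.30, limma adjusted p 0.0163), and with single-copy scaling its sign turned to -0.05. Within stroma the values were -0.05 for psaB (limma adjusted p 0.589) and -0.20 for psaA (limma adjusted p 0.0906), where 62.8% of genes passed. Scaled to the single-copy part, psaB stood at 1.31, 1.54 and 1.44 in Day membrane, against 1.20, 1.24 and 1.25 in Col0 membrane. In stroma it was then at 1.11, 1.14 and 0.978 in Day, against 1.32, 1.34 and 1.34 in Col0. The fraction in which psaB differed thus depends on the scaling.

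Between the leaf samples, Night minus Day gave a difference of ratios of -0.39 for psaB (SE 0.13, limma adjusted p 0.0594) and -0.32 for psaA (SE 0.14, limma adjusted p 0.150), with 7.96% of genes called and a median of 0.15. These stood 98th and 96th of 113 from the highest. At the library mean neither passed, and both passed with median scaling (-0.49, limma adjusted p 0.000246, and -0.43, limma adjusted p 0.00469) and with single-copy scaling (-0.52, limma adjusted p 0.00406, and -0.46, limma adjusted p 0.0248). Without Day membrane replicate 1 psaB passed at the library mean as well (-0.49, limma adjusted p 0.0161), as it did without Night membrane replicate 2 (-0.41, limma adjusted p 0.0487). Within membrane psaB fell by 0.27 in Night (limma adjusted p 0.0343, 18.6% of genes called). That call was lost without Day membrane replicate 2 or 3 (limma adjusted p 0.160 and 0.162) and without Night membrane replicate 1 or 2 (0.170 and 0.0527). Within stroma psaB was at 0.11 (limma adjusted p 0.275), where 59.3% of genes passed. Scaled to the single-copy part, psaB stood at 1.19, 1.29 and 1.23 in Night membrane, against 1.31, 1.54 and 1.44 in Day membrane. In stroma it was then at 1.41, 1.32 and 1.28 in Night, against 1.11, 1.14 and 0.978 in Day. The size of the change in each fraction thus depends on the scaling. The comparisons of Night with Day and of Day with Col0 share the Day libraries.

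No difference of ratios passed for the mutants. Against Col0 of set A, sig2-2 stood at 0.08 for psaA and 0.08 for psaB (limma adjusted p 0.779 and 0.778, 4.42% of genes called), and sig6-1 at 0.27 and 0.26 (limma adjusted p 0.205 and 0.182, 1.77% called). With only the libraries of sig6-1 and Col0 in the fit these last values passed (limma adjusted p 0.0189 and 0.0201). Against Col0 of set B the differences were -0.08 and -0.02 in sig2-2 (0.885% of genes called), -0.08 and -0.05 in chl27 (0% called) and -0.10 and -0.06 in chlm (0% called), psaA before psaB, with limma adjusted p values from 0.387 to 0.805. At an unadjusted p under 0.05 there were 5 genes in chl27 and 0 in chlm.

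The balance of psaA and psaB within a library does not depend on the scale, and no condition passed for it. In Col0 of set A psaA was covered 1.19, 1.14 and 1.15 times as deeply as psaB in membrane, against 1.09, 1.09 and 1.09 times in stroma, and these did not overlap. In sig6-1 it was 1.21, 1.16 and 1.23 times in membrane against 1.13, 1.09 and 1.14 times in stroma, also without overlap. In Day leaves it was 0.968, 0.962 and 0.959 times in membrane against 0.957, 1.02 and 0.986 times in stroma. The log2 difference of membrane and stroma was 0.09 in Col0, 0.10 in sig6-1 and 0.09 in sig2-2, and -0.04 in Day. Exact two-sided permutation tests gave p = 0.1 in Col0 and in sig6-1, the smallest that 3 against 3 can give, and 0.45 after adjustment over the 9 conditions. In set B the differences ran from -0.05 in sig2-2 to 0.02 in Col0, with exact permutation p values from 0.371 to 0.971. The difference of this balance between conditions was not tested.

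Along the genes the 200-bp profile held windows lower in membrane in Col0 and sig2-2 of set A. The profile has 24 windows that touch psaB or psaA and 3 upstream of psaA. Of the 24, the window at the psaA start lies mostly in the upstream region. In Col0 of set A the 24 ran from -0.48 to 0.03 with a median of -0.27, and 9 were lower in membrane, against a median of -0.32 and 59.2% called over all windows. The lowest of the 9 lay inside psaB, 4057 to 4256 bases inside from the psaA start (limma adjusted p 0.0180), and the 9 stretched from there to 1657 bases inside. The 1657 bases of psaA nearest its start held no called window in this fit. With the replicate number as a block, 2 windows there were lower in membrane. They lay 1257 to 1456 and 857 to 1056 bases inside (-0.27 and -0.31, limma adjusted p 0.0222 and 0.0146). In sig2-2 of set A, 10 of the 24 were lower in membrane (median -0.24), against a median of -0.37 and 68.1% called over all windows, and the lowest was the window at the psaB end (-0.79, limma adjusted p 0.00651). Most of that window is the 134-bp gene-free gap between psaB and rps14. With median scaling the split became 1 higher and 0 lower of the 24 in Col0 and 5 higher and 0 lower in sig2-2, and with single-copy scaling 1 and 5, and 4 and 1.

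In Day leaves all 24 windows over the genes lay above 0, from 0.03 to 0.32 with a median of 0.22, while the median of all windows was -0.21. At the library mean 2 of them passed, against 30.5% of all windows, and the higher of these lay in psaB, 2657 to 2856 bases inside from the psaA start (0.32, limma adjusted p 0.0181). Without Day membrane replicate 2 it stood at 0.25 (limma adjusted p 0.102). With median scaling 19 of the 24 were higher and with single-copy scaling 20, and none was lower under either. Leaving out 1 Day library gave 0 to 10 called windows in the region, 10 without membrane replicate 1 and 0 without membrane replicate 2 or stroma replicate 3. In Night 0 windows of the region passed, against 0.308% of all windows, and the 24 ran from -0.33 to 0.20.

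In sig6-1, 1 window inside psaA was higher in membrane, 1457 to 1656 bases inside from the start (0.40, limma adjusted p 0.0441), against 11.9% of all windows. It was not called with single-copy scaling (limma adjusted p 0.0649), without membrane replicate 1 (0.118) or 3 (0.219) or without stroma replicate 2 (0.246) or 3 (0.0713). The windows over the genes in set B lay within -0.22 and 0.38. Without a replicate block 0 of the 24 passed in sig2-2, chl27, chlm or Col0, against 1.69%, 1.23%, 2.62% and 6.01% of all windows. The value of 0.38 was that of the mostly gene-free window at the psaB end, in sig2-2. With the replicate number as a block, that window was higher and 5 of the 24 were lower in sig2-2, against 26.3% of all windows. In chl27 2 were then lower (13.1% of all windows), and none passed in chlm or Col0 (6.93% and 31.4%).

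**Figure D3:**
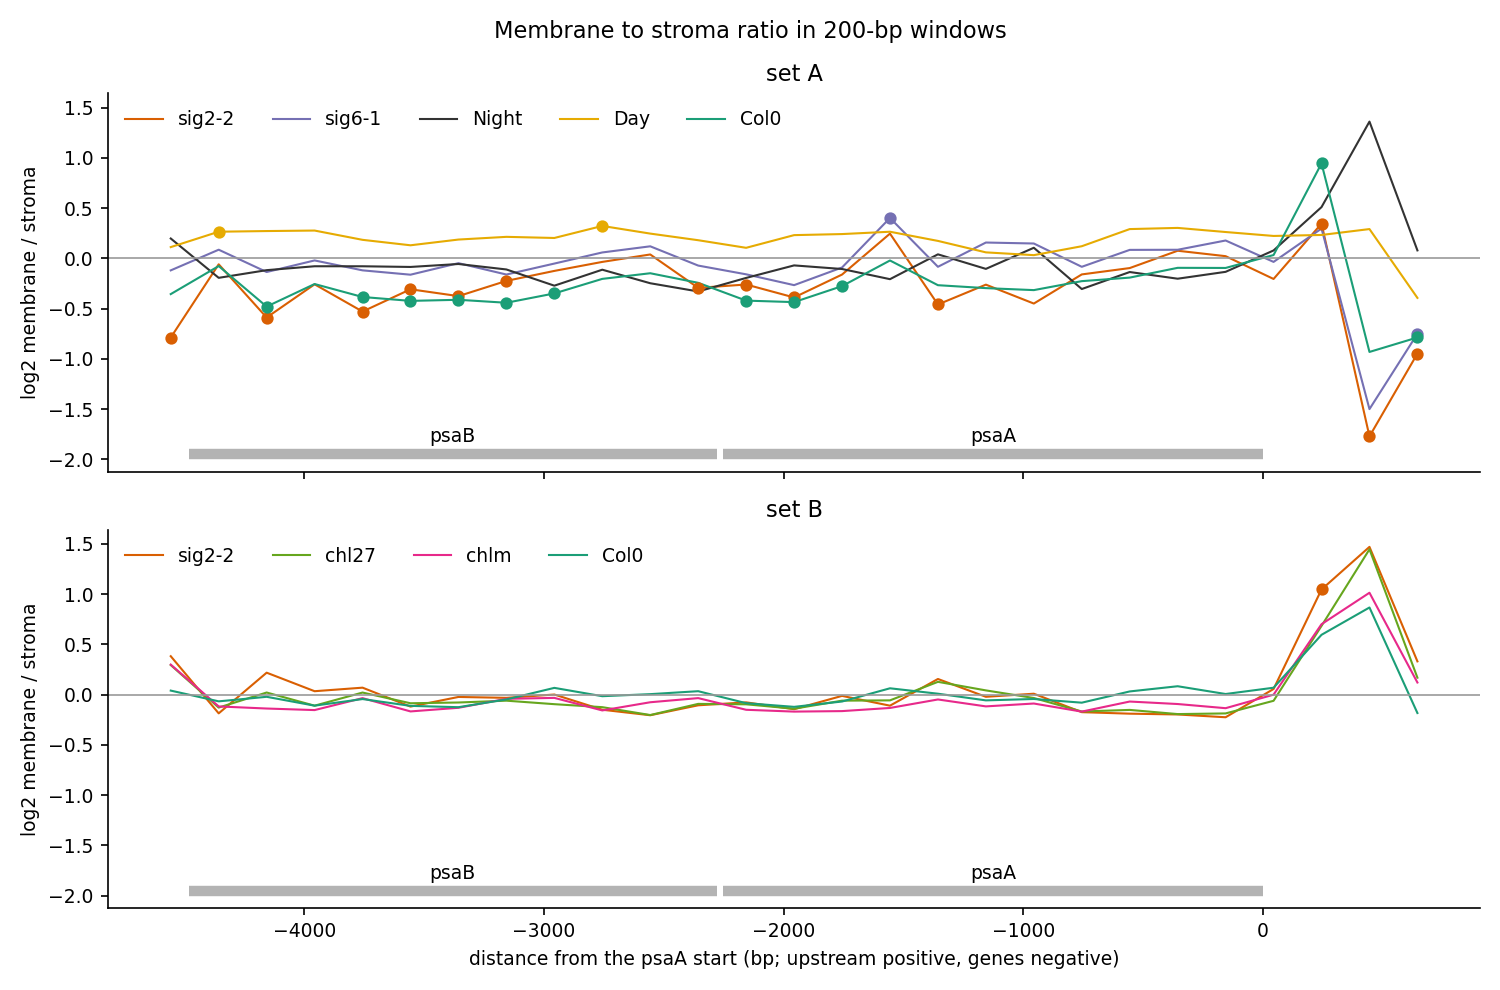
Log2 membrane to stroma ratio in 200-bp windows along psaB, psaA and the upstream region, by distance from the psaA start, for set A (top) and set B (bottom). Large points passed a limma adjusted p of 0.05 and grey bars mark the genes. The Day line (0.03 to 0.32 over the genes) lies above the Col0 line of set A in every window of the genes, and the lines spread upstream of psaA.

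Between Day and Col0 the difference of ratios had 1 sign along both genes. All 24 windows over the genes were above 0, from 0.19 to 0.75 with a median of 0.48, and 10 passed, all higher, against a median of 0.10 and 12.8% called over all windows. The highest lay in psaB (0.75, limma adjusted p 0.0388), and 3 were higher with median scaling and 13 with single-copy scaling. For Night minus Day 22 of the 24 were below 0 and 2 passed, both inside psaB, at -0.46 and -0.49 (limma adjusted p 0.0345 each), against 7.09% of all windows. With median scaling 1 of the 24 was lower for Night minus Day and with single-copy scaling 8. None passed for sig2-2 or sig6-1 against Col0 of set A (3.7% and 2.47% of all windows) or for sig2-2, chl27 or chlm against Col0 of set B (0%, 0% and 0%, with 48, 13 and 4 of all windows at an unadjusted p under 0.05).

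Upstream of psaA a window was higher in membrane where the genes were not. In Col0 of set A the window from 144 to 343 bases upstream of the psaA start stood at 0.857, 0.933 and 0.888 in membrane, against 0.459, 0.444 and 0.487 in stroma. Every membrane library was above every stroma library. Its log2 ratio of 0.95 (SE 0.13, limma adjusted p 4.74e-06) was the highest of the profile and the 27th of all 649 windows, while no window over the genes was above 0.03. It was higher in membrane under each scaling run (1.28 with median scaling, 1.13 with single-copy scaling) and without any 1 Col0 library (0.91 to 0.98). In 20-bp bins membrane coverage reached 1.54 at 164 to 183 bases upstream, against 1.01 in stroma. The highest ratio of group means between 100 and 350 bases upstream, a range chosen after the values were seen, lay at 224 to 243 bases upstream, with 1.05 in membrane and 0.290 in stroma.

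The same window was higher in membrane in sig2-2 of both tables. In set A it stood at 0.694, 0.789 and 0.735 in sig2-2 membrane, against 0.773, 0.534 and 0.473 in sig2-2 stroma. Only stroma replicate 1 reached the membrane values. The log2 ratio was 0.35 (SE 0.13, limma adjusted p 0.0221), and it did not pass without stroma replicate 3 (0.20, limma adjusted p 0.163), stroma replicate 2 (0.29, limma adjusted p 0.0908) or membrane replicate 2 (0.30, limma adjusted p 0.0651). In set B it stood at 1.03, 0.922, 1.15 and 1.17 in sig2-2 membrane, against 0.496, 0.328, 0.565 and 0.767 in sig2-2 stroma, without overlap. There the log2 ratio was 1.05 (SE 0.20, limma adjusted p 0.00410), and fitted on the sig2-2 libraries alone it did not pass (limma adjusted p 0.634). In set A that fit gave a limma adjusted p of 0.223.

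In the other conditions the window did not pass at the library mean without a replicate block. It was not the extreme window of the profile there or in sig2-2 of set B, and was followed in them after its values were seen. In set A the log2 ratio was 0.30 in sig6-1, 0.51 in Night and 0.23 in Day, with limma adjusted p values of 0.118, 0.0787 and 0.163. Night membrane stood at 0.866, 0.906 and 0.837, against 0.562, 0.613 and 0.659 in Night stroma, and Day membrane at 1.02, 1.14 and 1.10, against 0.928, 0.875 and 0.966 in Day stroma, neither with overlap. In set B the log2 ratio was 0.68 in chl27, 0.70 in chlm and 0.60 in Col0, with limma adjusted p values of 0.103, 0.0770 and 0.0799. chl27 membrane stood at 1.04, 0.902, 1.06 and 1.08, against 0.659, 0.410, 0.725 and 0.820 in chl27 stroma. chlm membrane stood at 1.01, 0.790, 0.952 and 1.13, against 0.482, 0.727 and 0.592 in chlm stroma. Col0 membrane stood at 0.949, 0.839, 0.896 and 1.04, against 0.567, 0.527, 0.666 and 0.714 in Col0 stroma. In all 3 every membrane library was above every stroma library. With median or single-copy scaling all 6 of these conditions passed, at limma adjusted p values from 0.00474 to 0.0471. With the replicate number as a block the window passed in chl27, chlm and Col0 of set B (limma adjusted p 0.00401, 0.0135 and 0.00404). It did not in sig6-1, Night or Day.

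The ratio of this window was lower in Day leaves than in Col0 seedlings, by -0.71 (SE 0.18, limma adjusted p 0.0127), which goes against the direction of the windows over the genes. It was 633rd of 649 windows from the highest and ran from -0.75 to -0.66 when 1 library was left out. The window averaged 1.09 in Day membrane against 0.892 in Col0 membrane, and 0.923 in Day stroma against 0.463 in Col0 stroma. Both fractions thus had the higher mean in Day. For the ratio, sig2-2 and sig6-1 of set A stood at -0.60 and -0.65 against Col0, with limma adjusted p values of 0.0606 each. With median scaling both passed (limma adjusted p 0.0207 and 0.00282). In set B, which differs from set A in protocol, sig2-2 stood at 0.45 against Col0 (limma adjusted p 0.414), the other way from set A. There chl27 and chlm stood at 0.09 and 0.11. Night minus Day gave 0.28 (limma adjusted p 0.358).

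**Figure D4:**
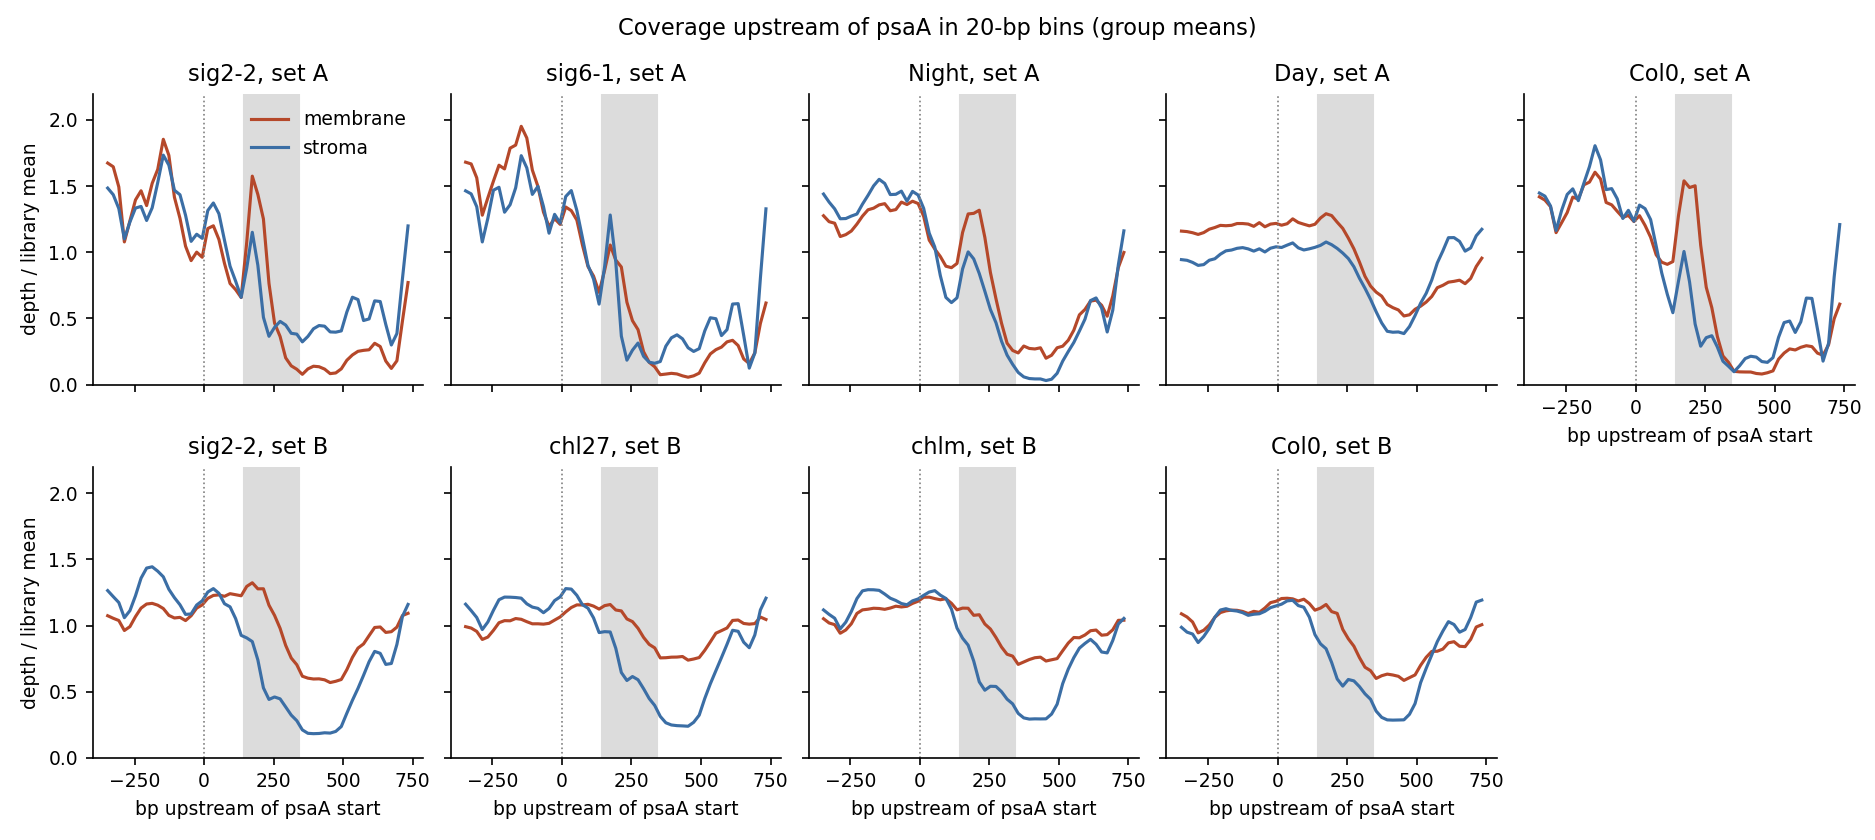
Coverage relative to the library mean in 20-bp bins around the psaA start, as group means of the membrane and stroma fractions of each condition. The horizontal axis is the distance upstream of the psaA start in bp, and grey marks 144 to 343 bases upstream. At 164 to 183 bases membrane stands at 1.54 and stroma at 1.01 in Col0 of set A, while in sig6-1 membrane is the lower one there (1.06 against 1.28).

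Farther upstream coverage fell to a low in both fractions. The window from 344 to 543 bases upstream stood at 0.0949 to 0.143 in Col0 membrane of set A, against 0.179 to 0.249 in Col0 stroma, and at 0.0712 to 0.211 in sig2-2 membrane, against 0.276 to 0.748 in sig2-2 stroma. Its depth was down to 16.6 in 1 library. It was lower in sig2-2 membrane of set A, at -1.77 on the log2 scale (SE 0.54, limma adjusted p 0.00838), and it did not pass without sig2-2 membrane replicate 1 (-1.42, limma adjusted p 0.0512) or stroma replicate 1 (-1.31, limma adjusted p 0.0699). It was also the lowest window of the profile in Col0 (-0.93, limma adjusted p 0.141) and sig6-1 (-1.50, limma adjusted p 0.0668, and -2.18 with 0.0143 without sig6-1 stroma replicate 1) of set A. In Night it was the highest, at 0.512, 0.110 and 0.180 in membrane, against 0.0638, 0.0842 and 0.111 in stroma (log2 ratio 1.36, limma adjusted p 0.313).

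In set B this window did not pass in any condition in the fit without a replicate block. The window stood at 0.262 to 1.06 in sig2-2 membrane against 0.0821 to 0.460 in sig2-2 stroma, and at 0.408 to 0.919 in Col0 membrane against 0.186 to 0.641 in Col0 stroma. Its log2 ratio was 1.47 in sig2-2, 1.45 in chl27, 1.01 in chlm and 0.87 in Col0, the highest of the profile in each, with limma adjusted p values from 0.200 to 0.434. Without sig2-2 stroma replicate 4 it passed in sig2-2 (1.88, limma adjusted p 0.0343). With the replicate number as a block it passed in sig2-2, chl27, chlm and Col0 (limma adjusted p 0.000391, 0.000317, 0.00690 and 0.00330). The last window, 544 to 743 bases upstream, reaches into ycf3, and was lower in membrane in sig2-2 (-0.95, limma adjusted p 0.000473), sig6-1 (-0.75, limma adjusted p 0.00726) and Col0 (-0.79, limma adjusted p 0.000507) of set A. Its values were 0.252 to 0.355 in sig2-2 membrane against 0.494 to 0.759 in sig2-2 stroma, and 0.291 to 0.382 in Col0 membrane against 0.530 to 0.593 in Col0 stroma.

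Taken as a whole and set against psaA in the same library, the upstream region showed no difference between the fractions that passed. These tests did not pair libraries by replicate number. In Col0 of set A its depth was 0.552, 0.585 and 0.575 of that of psaA in membrane, against 0.415, 0.449 and 0.443 in stroma, and in Night 0.785, 0.544 and 0.575 against 0.378, 0.429 and 0.477, neither with overlap. The log2 differences were 0.39 in Col0 and 0.56 in Night, each with an exact permutation p of 0.1, the smallest possible, and 0.18 adjusted over the 9 conditions. sig2-2 (-0.17), sig6-1 (-0.25) and Day (-0.05) of set A had exact permutation p values of 0.7, 0.4 and 0.9. In set B the differences were 0.76 in sig2-2, 0.60 in chl27, 0.55 in chlm and 0.35 in Col0, with exact permutation p values of 0.0571, 0.0571, 0.0857 and 0.2. Adjusted, these were 0.18, 0.18, 0.18 and 0.3. By replicate number, sig2-2 of set B had 0.829, 0.656, 1.02 and 1.16 in membrane, against 0.504, 0.366, 0.594 and 0.723 in stroma. In each condition of set B every membrane library was above the stroma library of the same number. Against Col0 the difference was -0.56 in sig2-2 and -0.64 in sig6-1 of set A (exact permutation p 0.025 and 0.045, adjusted over 7 comparisons 0.158 each), and 0.40 in sig2-2 of set B (exact permutation p 0.254, adjusted 0.444).

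The coverage of other gene-free bases moved with these values, and its part in them was not tested beyond the subtraction given here. The depth of all 31963 other gene-free single-copy bases, relative to gene bases, ran from 0.516 to 0.860 over the membrane libraries and from 0.521 to 0.873 over the stroma libraries of set A. In set B it ran from 0.736 to 1.01 in membrane and from 0.584 to 0.92 in stroma. Over libraries its log2 value had a Pearson correlation with that of the upstream region over psaA of 0.86 in set A membrane (n = 15), 0.92 in set A stroma (n = 15), 0.98 in set B membrane (n = 16) and 0.96 in set B stroma (n = 15). Both measures come from the same library, and these are descriptions. With the gene-free value subtracted, a measure chosen after the data were seen, the fractions of sig2-2 and chl27 in set B differed by 0.52 and 0.38 (exact permutation p 0.0286 each, the smallest that 4 against 4 can give, not adjusted), chlm by 0.34 and Col0 by 0.28 (exact permutation p 0.0571 each). In set A the fractions then differed by 0.13 in Col0 and 0.39 in Night (exact permutation p 0.1 each, the smallest possible), 0.04 in sig2-2, -0.24 in sig6-1 and -0.06 in Day (exact permutation p 0.8, 0.4 and 0.7). The sig2-2 against Col0 difference was then -0.09 (exact permutation p 0.705) and that of sig6-1 -0.37 (exact permutation p 0.035).

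**Figure D5:**
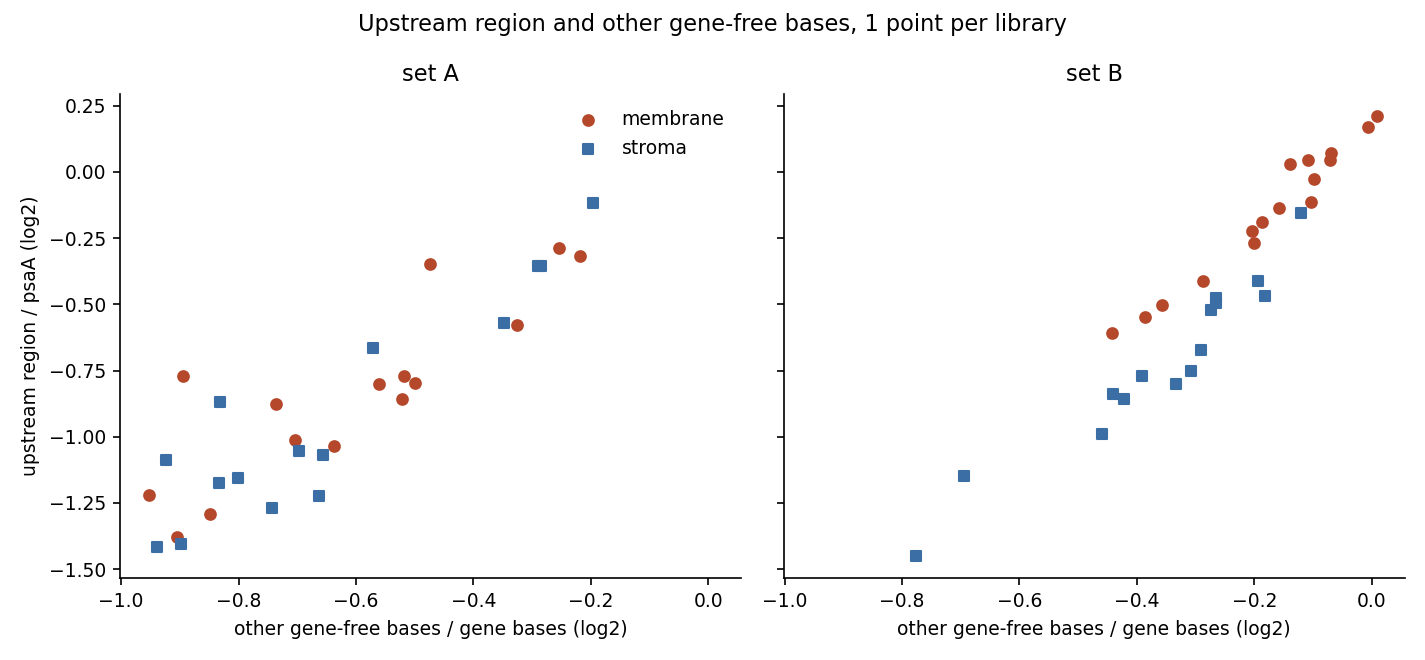
Depth of the upstream region over psaA against that of all other gene-free single-copy bases over gene bases, both log2, 1 point per library. In both sets the measures move together, with a Pearson correlation of 0.86 to 0.98 within a fraction.

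The other photosystem I genes and neighbours were followed as a list. It held psaC, psaI and psaJ, which encode further subunits, ycf3 and ycf4, which encode assembly factors of photosystem I, and rps14, which encodes a ribosomal protein and shares the operon. In Day 5 of the 6 were lower in membrane and 1 was higher, with a list median of -0.33 against -0.21 over all genes, of which 48.7% were called, 15 higher and 40 lower. The lower ones included psaI at -0.60 (limma adjusted p 0.000398), the lowest of all 113 genes, psaJ at -0.59 (limma adjusted p 0.00267) and psaC at -0.33 (limma adjusted p 0.00267). rps14 was higher, at 0.34 (limma adjusted p 0.00895), so the 3 genes of the operon lay above 0 and the rest of the list below. In Col0 and in sig2-2 of set A, 4 of the 6 were lower in membrane (psaI, psaJ, ycf3 and ycf4) and 0 higher, with list medians of -0.37 and -0.29 against -0.27 and -0.25 over all genes. Of all genes 72.6% were called in Col0 and 71.7% in sig2-2, mostly lower, so the share of the list is near that of all genes. In set B ycf4 alone passed, in Col0 (-0.18, limma adjusted p 0.0179), and in sig6-1 and Night of set A none did. For Night minus Day psaJ was the only one called, at 0.80 (limma adjusted p 0.0242), and none was called in the other 6 differences.

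Over the means of all 18 groups, with each set centred on its own mean, the genes most like psaA in relative coverage were psbD (Pearson 0.81) and psbC (0.75), which encode photosystem II core proteins, and psaB (0.70). Those most like psaB were ndhJ (0.79) and ndhC (0.76), which encode subunits of the NDH complex, and petB (0.78), which encodes cytochrome b6, and psaA was 19th of 112. For psaB the correlation was 0.68 with ycf3 and -0.35 with rps14, and for psaA 0.22 and 0.21. These values rest on shared libraries and are descriptions over 18 group means.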

How the data were processed

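The authors deposited the coverage (signal) of each plastid base, in 2 tables with 1 column per library. Per the submitters' processing notes, Trim Galore 0.4.1, Bowtie2 2.2.8.9, bedtools 2.25.0 and TAIR10 were used. Of 62 samples, 61 libraries in 18 groups were used. 1 value column, that of chlm stroma replicate 1, held a running line number and was left out. Groups follow the sample titles, also where the genotype field of set B reads wild type for mutants.

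Gene positions come from RefSeq (TAIR10.1). The axis about which the inverted repeat mirrors was 238649 in the gene positions and in the coverage, with a correlation of mirrored coverage over 0.999. The second repeat copy (129565 to 154312) was left out. Log2 of mean depth over the library mean was fitted with limma 3.58.1 in R 4.3.3 over 113 genes or 649 windows of 200 bp, each table on its own, with 1 mean per group, two-sided, Benjamini-Hochberg within a contrast, threshold 0.05. The fit was tested on simulated data. Ratios within a library were compared by exact two-sided permutation. Alternatives were median and single-copy scaling, fewer libraries, a replicate block, 100-bp windows and leaving out libraries. Replicate numbers were not taken to pair the fractions, since in neither set did the deviations of every same-numbered pair correlate above 0.1 over genes. In set B 14 of 15 pairs did, and results with a replicate block are given further on. Named genes were psaA, psaB, 6 neighbours or photosystem I genes and the 3 genes most like each. The extreme windows of each condition were named. Members and lists were chosen with earlier results of these data known. Coverage counts bases, not fragments, so no counting interval was computed. No 2 libraries were identical (highest correlation 0.994).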

Additional observations from a re-analysis of the deposited data

Results flagged for a closer look

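4 results met a rule for a closer look. Groups of 4 libraries were tested on each of 6 measures, 42 tests in all. In 2 of these a library lay far from the others, where chance gives about 1 in 20. The measures share libraries, so the tests are not independent. The psaA level of Col0 stroma replicate 4 in set B was 0.975, against 1.06 to 1.07 in the other Col0 stroma libraries. The log2 ratio of psaA over psaB of chl27 stroma replicate 2 in set B was 0.156, against 0.03 to 0.04 in the other chl27 stroma libraries. The membrane to stroma ratio of psaB differed between Day leaves and Col0 seedlings of set A by 0.52 (limma adjusted p 0.0153). That of the window from 144 to 343 bases upstream of psaA differed between the same conditions by -0.71 (limma adjusted p 0.0127).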

How the results depend on the processing

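The cause of the changes given here was not tested. With libraries scaled to the median gene, psaA was at 0.36 for Day minus Col0, -0.43 for Night minus Day, 0.39 in Day, 0.13 in sig2-2 and 0.033 in Col0 of set A, and 0.034 in Col0 of set B. psaB was at -0.49 for Night minus Day, -0.055 in Col0, 0.041 in sig2-2 and 0.076 in sig6-1 of set A, and 0.016 in Col0 of set B. With single-copy scaling psaA was at -0.46 for Night minus Day, 0.37 in Day, 0.18 in sig2-2, 0.052 in Col0 of set B and -0.054 for Day minus Col0 within membrane. psaB was at -0.52 for Night minus Day, -0.11 in Col0, 0.088 in sig2-2, 0.027 in sig6-1 and 0.034 in Col0 of set B, and the window from 144 to 343 bases upstream at -0.024 for chl27 minus Col0. The windows called in the region numbered 3 in Col0, 20 in Day, 1 in Night and 8 in sig2-2 of set A with median scaling, and 21 in Day, 1 in Night and 8 in sig2-2 with single-copy scaling. In Col0, chl27 and chlm of set B both scalings gave 1 each. For Day minus Col0, 11 windows were called at the library mean, 4 with median scaling and 14 with single-copy scaling, and for Night minus Day 2, 1 and 8.

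With only the conditions compared in the fit, limma adjusted p values were 0.0191 for psaA in Day minus Col0 (0.40), 0.0189 for psaA (0.27) and 0.0201 for psaB (0.26) in sig6-1 minus Col0, 0.00312 for psaA in Col0 (-0.21), 0.0755 for psaB in Day (0.23) and 0.314 for psaB in sig2-2 (-0.22). That fit called 21 windows in Col0, 4 in Day, 0 in sig2-2 and 0 in sig6-1 of set A, and 1 in Col0 and 0 in sig2-2 of set B. With 100-bp windows 1.85% of the region was called in Night and in each condition of set B. Without the outer 100 bases the log2 difference of psaA over psaB in chl27 was 0.0017. The upstream region over psaA, less the other gene-free bases, was at 0.044 in sig2-2 of set A, 0.52 in sig2-2 and 0.38 in chl27 of set B, and -0.087 for sig2-2 minus Col0 of set A. Without its first 143 bases it was at -0.70 for sig2-2 and -0.83 for sig6-1 against Col0 (exact permutation p 0.095 and 0.065).

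With the replicate number as a block, psaB in Night minus Day had a limma adjusted p of 0.0347 (-0.39), and the region held 5 called windows in Day, and 2 in Col0, 4 in chl27, 2 in chlm and 9 in sig2-2 of set B. With it the window from 344 to 543 bases upstream passed in sig2-2, chl27, chlm and Col0 of set B (limma adjusted p 0.000391, 0.000317, 0.00690 and 0.00330), and that from 144 to 343 bases in chl27, chlm and Col0 (0.00401, 0.0135 and 0.00404). The deviations of same-numbered membrane and stroma libraries correlated from -0.45 to 0.86 in set A, where 10 of 15 pairs were over 0.1, and from 0.06 to 0.93 in set B, where 14 of 15 were. Within Day, sig6-1, and chl27, chlm and Col0 of set B every pair was over 0.1. The library of the other fraction that correlated best carried the same number for 16 of 30 libraries in set A and 23 of 30 in set B.

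Leaving out 1 library at a time gave 0 to 10 called windows in Day, 7 to 17 in sig2-2 and 0 to 3 in sig6-1 of set A, and 0 to 1 in chlm and 1 to 4 in sig2-2 of set B. psaA ranged from 0.33 to 0.50 for Day minus Col0, 0.12 to 0.29 in Day, -0.19 to 0.0096 in sig2-2, -0.061 to 0.0054 in Col0 of set B and 0.13 to 0.30 for Day minus Col0 within membrane. psaB ranged from 0.16 to 0.33 in Day, -0.29 to -0.12 in sig2-2, -0.49 to -0.30 for Night minus Day, -0.38 to -0.19 for it within membrane, and in set B -0.16 to -0.035 in chlm, -0.12 to 0.0031 for chlm and -0.048 to 0.015 for sig2-2 against Col0. psaA over psaB ranged from -0.021 to 0.028 in chl27. The upstream region over psaA ranged from -0.16 to 0.068 in Day, -0.30 to 0.069 in sig2-2 and 0.44 to 0.71 in chl27, and from -0.69 to -0.32 for sig2-2 and -0.86 to -0.48 for sig6-1 against Col0. The window from 144 to 343 bases ranged from -0.12 to 0.21 for chl27 and -0.043 to 0.25 for chlm against Col0. The window from 344 to 543 bases had an SE of 0.54 in set A and of 0.52 to 0.57 in set B, at a depth down to 16.6 in set A and 111.5 in set B.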
